A study of Mus musculus with 12 samples.

Results

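The absorptive colonocyte genes described here are Car1, Car4, Aqp8, Slc26a3, Guca2a, Muc3, Krt20, Ceacam1, Lypd8 and Sult1a1, 10 genes of the 11807 that the arrays read. They were taken by name as known products of the surface cells of the colon, and all 10 had a probe set. The study measured transcripts in whole stomach and whole colon of mice carrying 2, 1 or 0 targeted alleles of Spdef, an ETS family transcription factor of goblet cells and other secretory cells. There were 12 samples, each on 1 Affymetrix HT Mouse Genome 430 array, with 2 arrays in each of 6 groups. The groups were colon of Spdef knockout (KO) mice, colon of heterozygous (HET) mice, colon of wild type (WT) mice, stomach of KO mice, stomach of HET mice and stomach of WT mice. The labels give strain C57BL/6, an age of 16 weeks and no treatment for all 6 groups. They describe neither the targeted allele nor the sex of the animals, and do not state that the duplicates are different animals. The p-values therefore measure the spread between duplicates, which may be technical.

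Absorptive colonocytes and goblet cells arise from the same crypt stem cells, and the choice between the absorptive and the secretory fate is made early in the crypt. The absorptive cells move up to the surface, where they take up water, sodium and chloride, release bicarbonate and carry a brush border covered by membrane mucins. Spdef acts within the secretory lineage, so the comparison of genotypes asks whether the absorptive genes differ when it is missing.

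All levels are log2(intensity + 16) after quantile normalization over the 12 arrays, and a difference is one group mean minus another on that scale, which understates the change of dim genes. Precision is limited by the number of arrays. A gene was tested within a tissue when it reached the filter level of 6.53 (an intensity of 76.5) in at least 2 of its arrays. A group mean below that level is read as not above background, and a fold against it is then given as "at least", from the filter level. Differences were tested with limma and Benjamini-Hochberg adjusted p over 7913 genes in colon, 7858 in stomach and 8452 between tissues, and called at an adjusted p under 0.05. In whole tissue, fewer absorptive cells and less RNA per cell cannot be told apart.

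The array labelled colon WT 2 stood apart from the other 5 colon arrays. Over all 11807 genes its mean correlation with the other arrays of its tissue was 0.9268, against 0.9544 to 0.968 for the other colon arrays. Of 15 markers of small intestine enterocytes, 12 were read by the arrays. Their mean level was 11.94 in colon WT 2, with all 12 above the filter level, against 5.68 to 6.90 in the other 5 colon arrays, where 5 to 10 markers lay below it. Spdef, the targeted gene, read 9.08 and 9.25 in the colon KO arrays, 10.27 and 9.81 in HET, and 10.97 and 8.74 in WT 1 and WT 2, so colon WT 2 lay below both KO arrays. In stomach Spdef read 8.86 and 8.63 in KO, 9.06 and 8.94 in HET, and 9.19 and 8.96 in WT. Where its probe set lies relative to the targeted sequence is not stated, so it does not check the labels. The KO minus WT difference of Spdef in colon was -0.69 over all arrays (adjusted p = 0.618) and -1.80 without colon WT 2 (adjusted p = 0.0105). The main results on colon are given with and without colon WT 2. Without it WT colon is 1 array, whose spread is assumed to be like that of the other groups. That array, colon WT 1, is the only colon array for which the submitters' processing notes name RMA, with MAS5 for the rest. Without colon WT 2 that note and the WT genotype in colon thus cannot be told apart. As deposited, the trimmed mean (the mean with extreme values left out) of colon WT 1 was 496.44. On the other 5 colon arrays it was 496.72 to 497.45.

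Promoters of 9 of the 10 genes were matched in a RefSeq table of the GRCm38.p6 build, and the 200 bases before the transcription start were searched for TTTAT, the core of the site of the intestinal CDX factors, and for CAAAGTCC, a core of the HNF4 site, on both strands. Lypd8 has 2 starts in that table, which makes 10 windows. TTTAT, or ATAAA on the other strand, was present in 4 windows, those of Aqp8, Slc26a3, Muc3 and Krt20, and 30.8% of all 32851 promoters in the table hold it. CAAAGTCC was in none of the 10 windows and in 0.956% of all promoters. In Slc26a3 and Krt20 the letters overlap a TATA-like run (tatataaa and ctataaaagg), so a match describes letters only. The windows of 4 genes are shown because their levels parted in colon WT 2, where Aqp8 and Slc26a3 were low while Muc3 and Guca2a stayed close to the other arrays. They lie at chr7:123462094-123462293 (plus strand) for Aqp8, chr12:31438019-31438218 (plus strand) for Slc26a3, chr5:137166047-137166246 (minus strand) for Muc3 and chr4:119637532-119637731 (plus strand) for Guca2a, each printed 5′ to 3′ on the strand of its gene with TTTAT or ATAAA in capitals.
Aqp8: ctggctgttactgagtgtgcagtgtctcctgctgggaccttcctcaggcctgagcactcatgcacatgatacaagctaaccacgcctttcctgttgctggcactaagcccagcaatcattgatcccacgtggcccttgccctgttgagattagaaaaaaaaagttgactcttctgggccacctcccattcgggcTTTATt
Slc26a3: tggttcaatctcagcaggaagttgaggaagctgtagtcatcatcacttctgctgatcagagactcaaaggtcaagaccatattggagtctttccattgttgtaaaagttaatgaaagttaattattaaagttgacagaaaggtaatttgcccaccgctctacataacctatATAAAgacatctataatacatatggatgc
Muc3: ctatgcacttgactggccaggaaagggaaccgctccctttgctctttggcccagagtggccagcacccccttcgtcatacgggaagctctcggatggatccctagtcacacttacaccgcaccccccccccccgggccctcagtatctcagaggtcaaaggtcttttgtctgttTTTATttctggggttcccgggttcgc
Guca2a: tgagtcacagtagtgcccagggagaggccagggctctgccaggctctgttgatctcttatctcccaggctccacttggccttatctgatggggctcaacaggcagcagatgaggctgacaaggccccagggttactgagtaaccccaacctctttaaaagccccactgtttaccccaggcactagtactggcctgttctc

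The carbonic anhydrases, which turn carbon dioxide and water into bicarbonate and protons, were high on colon arrays, with colon WT 2 below the rest. Car1, the cytosolic enzyme abundant in colon epithelium, lay at 13.82 and 13.50 in colon KO, 13.97 and 13.93 in colon HET, and 14.01 and 6.65 in colon WT 1 and WT 2. In stomach Car1 lay at 4.79 and 5.52 in KO, 5.95 and 5.08 in HET, and 4.54 and 4.69 in WT, below the filter level throughout. As deposited, the Car1 intensity was 75.2 on colon WT 2, where the other 5 colon arrays had 10268 to 22133. The colon KO and HET arrays and colon WT 1 thus formed a narrow band, with colon WT 2 near the stomach arrays. Car4, the membrane-bound enzyme of the apical surface, lay at 12.91 and 12.70 in colon KO, 12.91 and 13.12 in colon HET, and 13.03 and 11.19 in colon WT 1 and WT 2. Its stomach levels were 7.34 and 7.56 in KO, 7.41 and 7.89 in HET, and 7.55 and 7.03 in WT, above the filter level on all 6 arrays. A second Car4 probe set gave the same picture, with 11.39 on colon WT 2 and 12.60 to 13.21 on the other colon arrays.

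The transporters of water and chloride differed in how steady they were among the arrays. Slc26a3, the apical exchanger of chloride for bicarbonate, lay at 12.58 and 12.83 in colon KO, 12.51 and 13.41 in colon HET, and 12.74 and 11.08 in colon WT 1 and WT 2. In stomach it stayed between 4.13 and 5.53 on all 6 arrays, below the filter level. Aqp8, a water channel of colon surface cells, lay at 8.82 and 12.19 in colon KO, at 9.07 and 12.36 in colon HET, and at 10.66 and 5.54 in colon WT 1 and WT 2. The KO and HET arrays overlapped fully for Aqp8, and the 2 arrays of each group were further apart than any pair of genotype means. Its stomach levels were 5.28 and 4.38 in KO, 5.42 and 6.01 in HET, and 5.66 and 5.08 in WT, all below the filter level. Colon WT 2 fell among those stomach values.

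The products of the cell surface, which lay high on the intensity scale, differed little among the colon arrays. Guca2a, which encodes guanylin, the peptide that activates the receptor guanylate cyclase C, lay at 14.10 and 13.93 in colon KO, 14.18 and 14.19 in HET, and 14.06 and 13.78 in WT. Muc3, a membrane mucin of the brush border, lay at 13.86 and 13.96 in colon KO, 13.76 and 13.69 in HET, and 13.70 and 13.80 in WT. For Guca2a both KO arrays lay between the 2 WT arrays or above them, so KO and WT overlapped. For Muc3 both KO arrays lay above the HET and WT arrays by a small margin on this scale only. As deposited, Muc3 read 12906 and 13467 in KO, below WT at 16972 and 14279 and above HET at 12860 and 10258.5. The share of all genes with KO above HET and WT was not counted. Both genes were below the filter level on all 6 stomach arrays, with ranges of 4.11 to 5.93 for Guca2a and 4.95 to 6.23 for Muc3. Ceacam1, an adhesion molecule of the apical membrane, lay at 13.10 and 13.38 in colon KO, 13.34 and 13.33 in HET, and 13.63 and 12.93 in WT, and at 6.19 to 6.81 in stomach. It is read by 8 probe sets, and whether they also read its near-identical paralogue Ceacam2, which lay at 13.01 on colon WT 2 and at 13.62 to 13.87 on the other colon arrays, is uncertain. Lypd8, a lipid-anchored protein that keeps flagellated bacteria away from the colon epithelium, lay at 14.25 on both colon KO arrays, 14.30 on both HET arrays, and 14.32 and 13.82 on WT 1 and WT 2.

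Lypd8 and Krt20 were not confined to colon. In stomach Lypd8 read 13.37 and 13.54 in KO, 13.44 on both HET arrays, and 13.36 and 13.71 in WT, all far above the filter level though below the colon arrays. Krt20, the keratin of differentiated surface cells of both gut and stomach, lay at 12.92 and 12.91 in colon KO, 12.78 and 12.83 in colon HET, and 13.19 and 13.26 in colon WT. Its stomach levels were 11.05 and 10.19 in KO, 10.80 and 10.51 in HET, and 10.60 and 11.62 in WT. On the quantile normalized scale Krt20 was the one member whose highest colon array was colon WT 2. Both of its WT colon arrays lay above the KO and HET arrays, an order whose share among all genes was not counted. Sult1a1, a sulfotransferase that conjugates phenols, lay at 13.48 and 11.68 in colon KO, 13.85 and 13.62 in HET, and 13.20 and 9.64 in WT 1 and WT 2. In stomach Sult1a1 lay at 9.76 and 8.06 in KO, 10.13 and 9.90 in HET, and 8.83 and 9.19 in WT. Colon WT 2 was inside the stomach range for Sult1a1, and colon KO 2 was the next lowest colon array.

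**Figure D1:**
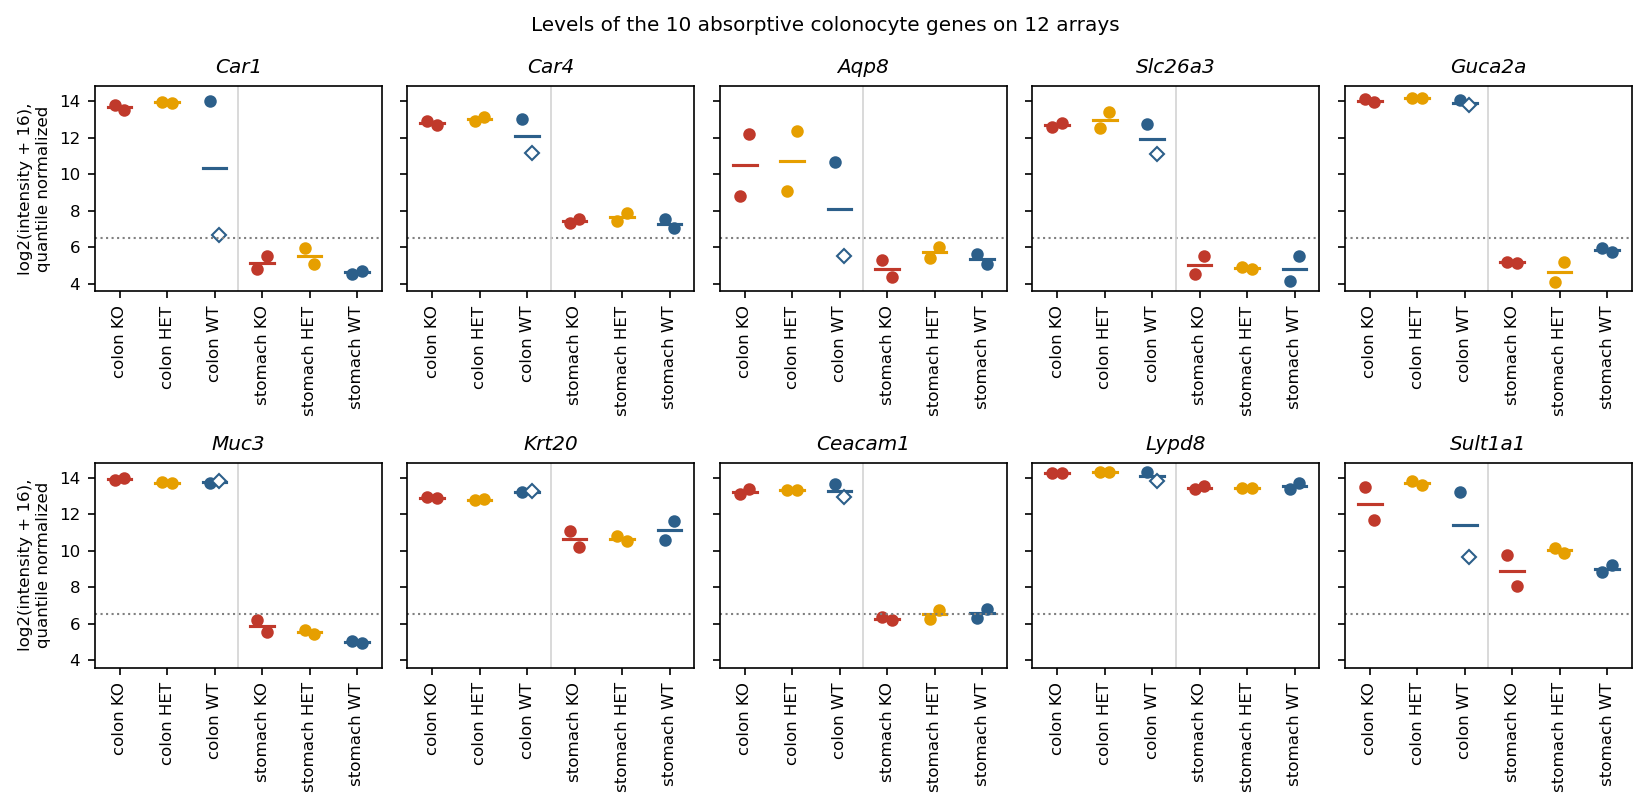
Levels of the 10 genes on the 12 arrays, as log2(intensity + 16) after quantile normalization, by tissue and Spdef genotype. Points are arrays, short lines are group means (n = 2), the open diamond is colon WT 2 and the dotted line is the filter level of 6.53. On colon WT 2 Aqp8 and Sult1a1 lie within their stomach ranges and Car1, at 6.65, just above its own, while Muc3, Krt20 and Guca2a stay near the other colon arrays.

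The 10 genes were chosen as colon genes, and their levels in colon and stomach check that label. Car1, Aqp8, Slc26a3, Guca2a and Muc3 passed the filter through colon arrays alone, so these counts support nothing further. Between KO colon and KO stomach all 10 were higher in colon, beside 10.4% of the 8452 genes tested. In HET mice 9 of 10 were higher, beside 10.1% of genes, with Aqp8 at a difference of 5.0 (SE 1.65, adjusted p = 0.058). In WT mice 8 of 10 were higher, beside 10.8%, and Aqp8 and Sult1a1 had adjusted p-values of 0.251 and 0.111. Without colon WT 2 all 10 were higher in WT, beside 11.7% of 8404 genes, as were all 10 in KO mice (beside 14.4%) and in HET mice (beside 14.2%). The median difference of the 10 genes was 6.32 in KO, 6.09 in HET and 5.26 in WT mice, or 6.40 in WT without colon WT 2, where the medians over all genes tested were -0.04, -0.05, -0.08 and -0.05.

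The tissue differences ranged from at least 179-fold to 1.73-fold in KO mice. In KO mice Guca2a was at least 179-fold higher in colon (adjusted p = 8.74e-08), Muc3 at least 166-fold (adjusted p = 1.5e-08), Car1 at least 140-fold (adjusted p = 0.00737) and Slc26a3 at least 72.3-fold (adjusted p = 2.83e-05). Ceacam1 was at least 105-fold higher (adjusted p = 2.21e-07) and Car4 41.1-fold higher (difference 5.36, SE 0.48, adjusted p = 6.21e-05). Aqp8 was at least 15.7-fold higher in KO colon (adjusted p = 0.0358) and Sult1a1 12.7-fold (difference 3.67, SE 1.02, adjusted p = 0.0296). Krt20 was 4.90-fold higher (difference 2.29, SE 0.33, adjusted p = 0.00118) and Lypd8 1.73-fold (difference 0.79, SE 0.16, adjusted p = 0.00732). The Lypd8 calls were lost on the deposited values without quantile normalization, with differences of 0.48 in KO (adjusted p = 0.234), 0.53 in HET (adjusted p = 0.192) and 0.60 in WT (adjusted p = 0.127). Without stomach KO 1 only 6 of 10 calls remained in KO mice, and Car1, Aqp8, Lypd8 and Sult1a1 had adjusted p-values of 0.0551, 0.106, 0.0571 and 0.0507. The Aqp8 call in KO mice was lost in 9 of 18 alternatives, among them each stomach array or colon KO 2 left out, with adjusted p-values up to 0.188. In WT mice the Car1 call was lost in 9 of 18 alternatives and the Lypd8 call in 10 of 18. The submitters' processing notes name RMA for both stomach KO arrays and colon WT 1 and MAS5 for the other 9. In stomach that note and the KO genotype therefore cannot be told apart, and in KO mice that note and the tissue cannot either. Once colon WT 2 is left out, the same holds for that note and the WT genotype in colon, and for that note and the tissue in WT mice.

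No absorptive gene was called between Spdef genotypes in colon. In colon KO minus WT 0 of 10 genes passed, beside 0.0505% of all genes, or 4 of 7913, with a smallest adjusted p of 0.48 (limma), and 0 of 10 had an unadjusted p under 0.05, beside 11.2% of all genes. In HET minus WT 0 of 10 passed, beside 0.0253%, and Sult1a1 alone had an unadjusted p under 0.05 (0.0478), as did 9.63% of all genes. In KO minus HET, which does not use the WT arrays, 0 of 10 passed, beside 0.0253%, and none had an unadjusted p under 0.05, beside 4.15%. Without colon WT 2 the counts were again 0 of 10, beside 0.307% of 7825 genes in KO minus WT, 0.0767% in HET minus WT and 0.102% in KO minus HET.

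The size and sign of the KO minus WT differences turned on colon WT 2. Over all arrays Car1 had a difference of 3.33 (95% interval -0.57 to 7.24, adjusted p = 0.48), and without colon WT 2 it was -0.35 (-1.18 to 0.48, adjusted p = 0.76). Aqp8 had 2.40 (-1.30 to 6.11) with that array and -0.16 (-3.28 to 2.96) without it. Sult1a1 had 1.16 (-1.13 to 3.45) with it and -0.62 (-2.24 to 1.01) without it. Krt20, with KO arrays below both WT arrays, had -0.32 (-1.06 to 0.43, adjusted p = 0.713) with it and -0.28 without it. Slc26a3 and Car4 differed by 0.79 and 0.70 with colon WT 2 and by -0.03 and -0.22 without it. In all, 8 of 10 differences were positive with colon WT 2 and 1 of 10, that of Muc3, without it. The median difference of the 10 genes was 0.44 with the array and -0.19 without, beside 0.06 and 0.02 over all genes tested. On the deposited values without quantile normalization 5 of 10 were positive over all arrays, because Guca2a, Muc3 and Lypd8 turned to -0.34, -0.24 and -0.32. Of the HET minus WT differences 8 of 10 were positive with colon WT 2 and 5 of 10 without it, with medians of 0.59 and 0.01. Car1 had 3.62 with the array and -0.07 without it, whereas Sult1a1 stayed positive, at 2.31 and 0.54.

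Leaving out the other WT array gave the opposite picture. With colon WT 2 as the only WT colon array, 4 of 10 genes were called in KO minus WT, beside 12.5% of all genes, and the same 4 in HET minus WT, beside 13.7%. Car1 was then higher by 7.01 (adjusted p = 8.8e-06) in KO, Car4 by 1.62 (0.00513), Aqp8 by 4.96 (0.047) and Sult1a1 by 2.94 (0.0295). In HET the differences from that array were 7.30 for Car1, 1.83 for Car4, 5.17 for Aqp8 and 4.09 for Sult1a1. The calls rest on colon WT 2, the array that carries the small intestine enterocyte transcripts.

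On the quantile normalized scale, the intervals without colon WT 2 show what size of genotype difference these arrays could have missed. For KO minus WT they reached from -0.39 to 0.24 for Lypd8, from -0.35 to 0.78 for Muc3, from -0.83 to 0.74 for Guca2a and from -0.99 to 0.20 for Ceacam1. Car4 had an interval of -0.82 to 0.38 and Krt20 one of -1.19 to 0.63. For Slc26a3 it ran from -1.33 to 1.26. Aqp8 was measured least well, and a difference of 2.96 or of -3.28 lies at the limits of its interval. A p above the threshold therefore does not show equal levels, least of all for Aqp8 and Sult1a1. The narrow intervals of genes high on the intensity scale also hold only after quantile normalization. As deposited, Lypd8 read 27214.5 on colon WT 1 and 16057 and 15930 in KO, and Guca2a 22581 against 14859 and 13399. Muc3 and Ceacam1 too were higher on colon WT 1 than on both KO arrays as deposited.

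KO and HET colon, compared without any WT array in the difference, lay close for most of the genes. KO minus HET was negative for 8 of 10, with a median of -0.19 beside 0.02 over all genes. The lowest was Sult1a1 at -1.15 (95% interval -3.44 to 1.13, adjusted p = 0.999, or -2.48 to 0.17 and adjusted p = 0.712 without colon WT 2 in the fit). Car1 differed by -0.29, Slc26a3 by -0.25, Car4 and Aqp8 by -0.21 and Guca2a by -0.17. Muc3 and Krt20 had the only positive differences, 0.19 and 0.11. For Sult1a1 the KO mean was set by KO 2 at 11.68, since KO 1 at 13.48 lay close to HET 2 at 13.62.

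**Figure D2:**
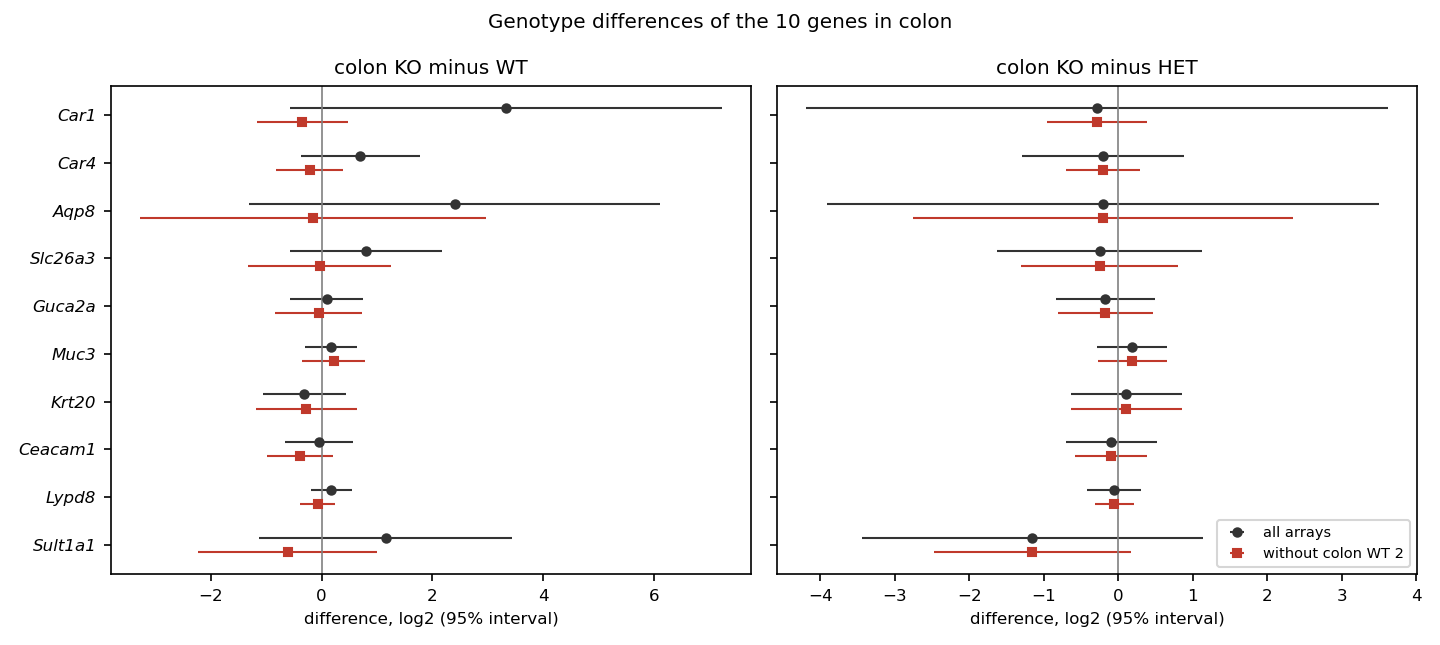
Genotype differences of the 10 genes in colon on the log2 scale, KO minus WT on the left and KO minus HET on the right, with 95% intervals from limma. Black circles use all arrays and red squares leave out colon WT 2. The Car1 and Aqp8 circles lie at 3.33 and 2.40 for KO minus WT and their squares at -0.35 and -0.16, and for KO minus HET circle and square share one value.

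In stomach 5 of the 10 genes passed the filter, namely Car4, Krt20, Ceacam1, Lypd8 and Sult1a1, and none was called in KO minus WT (beside 0.0127% of 7858 genes), HET minus WT (beside 0%) or KO minus HET (beside 0.0127%). None of the 5 had an unadjusted p under 0.05 there, where 3.68%, 2.27% and 1.92% of all genes did. The KO minus WT differences ran from -0.49 for Krt20 to 0.16 for Car4. Sult1a1 differed by -0.10 (95% interval -2.36 to 2.16), and its 2 stomach KO arrays were 1.70 apart. The other 5 genes, Car1, Aqp8, Slc26a3, Guca2a and Muc3, stayed below the filter level on all 6 stomach arrays. Whether the KO minus WT difference itself differed between colon and stomach was tested for all 10, and 0 passed, beside 0.0237% of 8452 genes. The lowest unadjusted p was that of Muc3 (0.0363, adjusted p = 0.886), with a colon difference minus stomach difference of -0.72. Its stomach values all lay below the filter level. The differences between tissues had a median of 0.57 over all arrays, with 9 of 10 positive, and of -0.17 without colon WT 2, with 4 positive and a smallest adjusted p of 0.725. Without colon WT 1 the count was 2, Car1 at 6.48 and Car4 at 1.46, beside 4.71% of all genes.

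On the quantile normalized scale colon WT 2 lay below all 5 other colon arrays for 8 of 10 genes, beside 34.1% of the 7913 genes tested in colon. It lay above all 5 for Krt20 and within their range for Muc3. As deposited, colon WT 2 was not lowest for Guca2a (14092, against 13399 on KO 2) or Lypd8 (14661, against 14331 on HET 2). Nor was it then highest for Krt20 (10169, against 10514 on WT 1). Car1 was 116-fold below the lowest of the other colon arrays, Sult1a1 4.11-fold and Aqp8 at least 4.88-fold. For Car4 the fold was 2.86 and for Slc26a3 2.68. Lypd8, Ceacam1 and Guca2a were within 1.34-fold of the lowest other array. Over the 8 probe sets of Ceacam1, however, colon WT 2 lay between -1.69 and -0.41 from the median of the other 5, and the probe set used here showed the smallest drop. A level 2 or more below the median of the other 5 was found for Car1, Aqp8 and Sult1a1, 3 of 10 genes, beside 1.48% of all genes tested. These are values of 1 array with no replicate, given without a test.

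The genes that colon WT 2 kept and lost can be set beside the markers of other cells on the same array. The small intestine enterocyte transcripts Fabp6, an ileal bile acid carrier, Apoa1, an apolipoprotein, and Anpep, a brush border peptidase, read 14.42, 14.32 and 13.52 there. In the other 5 colon arrays Fabp6 ranged from 5.84 to 8.73, Apoa1 from 4.21 to 7.0 and Anpep from 5.44 to 6.66. Apoa1 and Anpep were not particular to colon WT 2 in this series. On the 6 stomach arrays they ranged from 13.56 to 13.94 and from 9.52 to 10.19, and Fabp6 from 4.26 to 5.94. The mean of 4 Paneth cell markers was 11.46 on colon WT 2, against 8.57 to 9.46 on the others. Defa31 read 13.87 there, against 4.14 to 8.10, and Lyz1 7.75, against 4.84 to 5.70. The rise was not shared by Mmp7, which at 10.57 lay within the range of the others, or by Itln1, which at 13.63 was lowest on colon WT 2. Smooth muscle markers averaged 10.46 there, against 11.25 to 12.06. The 10 gastric markers averaged 5.26 there, against 5.33 to 5.48, so they were dim on all 6 colon arrays. Goblet cell markers averaged 12.42 and 13.52 in KO, 13.23 and 13.45 in HET, and 13.54 and 12.35 in WT 1 and WT 2. The part of these transcripts in the low Car1, Aqp8 and Sult1a1 was not tested.

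**Figure D3:**
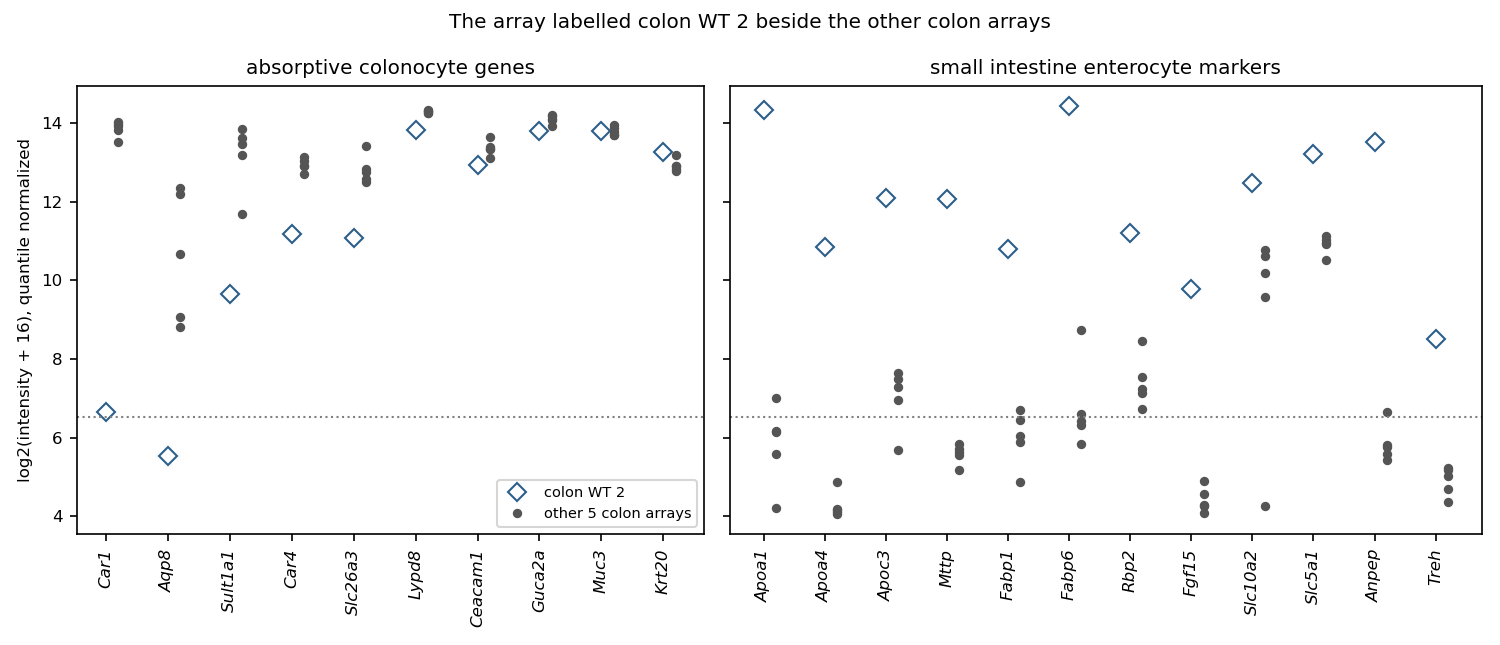
Levels on the array labelled colon WT 2 (open diamonds) and on the other 5 colon arrays (dots), for the 10 absorptive genes on the left and 12 small intestine enterocyte markers on the right, as log2(intensity + 16) after quantile normalization. The dotted line is the filter level. Car1 reads 6.65 on colon WT 2 and at least 13.50 on the others, and every enterocyte marker is highest on colon WT 2.

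Aqp8 was the member that varied most among the colon arrays other than WT 2. Its array 2 exceeded array 1 by 3.29 in HET and by 3.38 in KO, while the other 9 genes differed by at most 0.90 in HET and, apart from Sult1a1 at -1.79, by at most 0.31 in either direction in KO. A gap of 3 or more in the same direction in both groups was found for 5 of 7913 genes, and for 0 with array 1 the higher in both. These are Aqp8, Hoxb13, Insl5, Sval1 and Ly6m, singled out after their values were seen. Hoxb13, a homeobox gene of the most posterior gut, read 4.31 and 10.81 in KO 1 and KO 2, 4.39 and 8.24 in HET 1 and HET 2, and 4.24 and 4.31 in WT 1 and WT 2. Insl5, a hormone of endocrine cells of the distal colon, read 6.54 and 11.66 in KO, 7.86 and 10.95 in HET, and 9.61 and 7.46 in WT. That KO 2 and HET 2 lay above KO 1 and HET 1 for all 5 genes follows from how they were chosen. The WT arrays were not used in that choice, and there the genes parted. Aqp8, at 10.66 and 5.54, was higher on WT 1 than on WT 2, as were Insl5 and Sval1. Hoxb13 was below the filter level on both WT arrays, and Ly6m was highest on WT 2, at 11.56. The segment of colon that each sample held is not given in the labels, and its part in the Aqp8 levels was not tested. For Sult1a1 the order was different, with KO 2 low and HET 2 high.

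**Figure D4:**
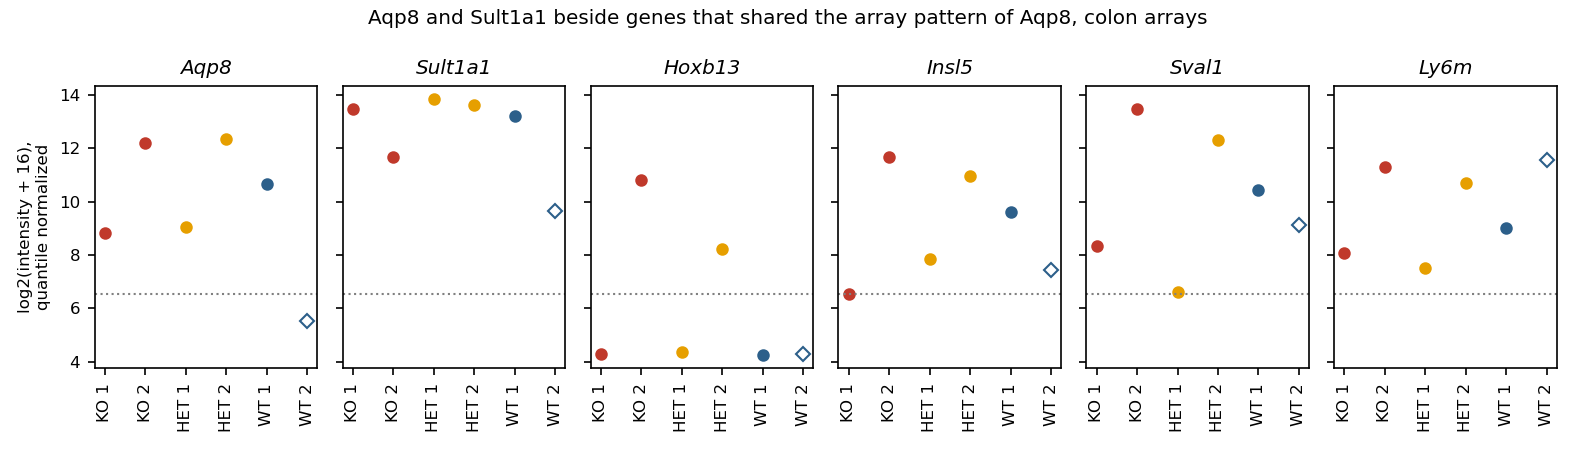
Levels of Aqp8, Sult1a1, Hoxb13, Insl5, Sval1 and Ly6m on the 6 colon arrays, as log2(intensity + 16) after quantile normalization, with the filter level dotted and colon WT 2 as an open diamond. Aqp8, Hoxb13, Insl5, Sval1 and Ly6m were singled out for a gap of at least 3 between arrays 2 and 1 in both KO and HET, and Sult1a1 is shown as a member without it.

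Colon KO 2 also carried other cell markers at levels outside those of the other colon arrays. Exocrine pancreas markers averaged 7.61 on it, against 5.37 to 5.55, with 5 of 8 above the filter level, against 1 of 8 elsewhere. B and plasma cell markers averaged 9.44, against 7.08 to 8.50, and adipose markers 7.37, against 9.50 to 10.42. Markers of proliferating and stem cells averaged 8.55 and 8.90 on the KO arrays, against 7.96 to 8.24 on the HET and WT arrays. The proliferation markers Mki67, Top2a, Birc5, Bub1 and Ccnb2 were higher on both KO arrays than on every HET and WT array. The stem cell markers were not, with Lgr5 at 7.11 and 6.96 in KO, against 6.99 to 7.86, and Ascl2 at 7.41 and 6.83, against 6.56 to 7.49. For Top2a the margin was small, with 9.14 on KO 1 and 9.09 on WT 2. How many of all genes were higher on both KO arrays was not counted. None of the 7 proliferating and stem cell markers was called by limma in colon KO minus WT (smallest adjusted p = 0.32) or KO minus HET (0.999). The list of colonocyte metabolism genes averaged 11.11 on KO 2, against 11.86 to 12.24. The part of these differences in the low Sult1a1 of KO 2 was not tested. With KO 2 left out, the members called in any colon genotype comparison remained 0.

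Other absorptive genes, in 4 lists of 77 names of which 63 were on the arrays and 58 were tested in colon, were looked at beside the 10. None of the 58 was called in KO minus WT, HET minus WT or KO minus HET in colon, with or without colon WT 2. In KO minus WT 29 differences were positive and 29 negative, with a median of 0.01, and -0.07 without colon WT 2. Between tissues 35 of 60 genes were called higher in colon than in stomach in KO mice and 4 lower, beside 878 higher and 1037 lower of all 8452 genes tested. The calls were 32 higher and 2 lower in HET mice, beside 856 higher and 1003 lower of all genes. In WT mice the list gave the same numbers, beside 915 higher and 1368 lower. The median WT difference of the list was 1.59 over all arrays and 1.41 without colon WT 2, beside -0.08 and -0.05 over all genes tested.

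The genes named from each list had the largest KO minus WT differences and none passed the test. Among ion transporters Atp12a, the colonic proton-potassium pump, read 7.45 and 11.48 in colon KO, 7.84 and 10.07 in HET, and 6.55 and 5.62 in WT (difference 3.38, SE 1.11, adjusted p = 0.384, and 2.92 without colon WT 2). Its array 2 was the higher in KO and HET, as for Aqp8. Car2, a further cytosolic carbonic anhydrase, read 13.35 and 13.02 in KO, 13.42 and 13.28 in HET, and 13.33 and 7.31 in WT 1 and WT 2, with a difference of 2.87 that became -0.14 without colon WT 2. Car2 thus repeated the pattern of Car1 among the colon arrays only. In stomach Car2 read 13.81 to 14.08, above every colon array, where Car1 was below the filter level. Among brush border genes Espn, an actin bundler of microvilli, differed by -1.30 and Tmigd1, an adhesion protein, by -1.26, and these were -0.22 and -0.45 without colon WT 2.

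In the guanylate cyclase C list Guca2b, which encodes uroguanylin, the second ligand of the receptor, read 11.17 and 10.85 in KO, 10.64 and 10.72 in HET, and 10.16 and 13.50 in WT 1 and WT 2. Its difference was -0.81 (adjusted p = 0.693), and 0.86 without colon WT 2 (SE 0.26, adjusted p = 0.277). On colon WT 2 uroguanylin was thus high, whereas guanylin (Guca2a) lay a little below the other colon arrays, though only after quantile normalization. Klf5, a zinc finger factor of crypt cells, differed by 0.50 (SE 0.16, adjusted p = 0.362), and by 0.59 without colon WT 2 (adjusted p = 0.277). Of the metabolism genes Prap1, a secreted proline-rich protein, read 10.30 and 4.63 in KO, 9.62 and 8.97 in HET, and 8.43 and 13.05 in WT, with a difference of -3.27 (adjusted p = 0.5), and -0.96 without colon WT 2 (adjusted p = 0.885). Selenbp1, a selenium-binding protein of mature colonocytes, read 13.65 and 12.46 in KO, 13.56 and 13.39 in HET, and 13.11 and 10.63 in WT, with a difference of 1.19 (adjusted p = 0.499), and -0.05 without colon WT 2 (adjusted p = 0.979). In KO minus HET the differences of the 17 metabolism genes had a median of -0.31, 16 were below 0 and none was called. Of all 7913 genes tested, 3689 were below 0. The mean of the list was 12.244 on KO 1, above both HET arrays at 12.145 and 12.104, and 11.105 on KO 2, so its sign rests on KO 2.

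The genes whose colon pattern was most like the mean of the 10 were listed by Pearson's r over the 6 colon arrays, among 7903 other genes, as a description. The first 10 were Aspn, Cyp2d9, Epha7, Ncam1, Oit1, Mrpl38, St6galnac6, Ceacam2, Rcn2 and Endod1, with r from 0.994 to 0.984. All 10 were lowest on colon WT 2, as was the mean of the 10 absorptive genes (11.17, against 12.98 to 13.48), so the likeness rests on that array. Over the 5 arrays without it the first 10 were Spop, Ube2l3, Dync1i1, Atf3, Rpp14, Plaur, Psmd9, Isca2, Dnajc12 and Btc, with no gene shared with the first list.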

How the data were processed

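The table held 22716 probe sets on 12 arrays. The deposited values are linear intensities. Per the submitters' processing notes, 3 arrays came from RMA and the other 9 from MAS5, with no versions given. The trimmed mean of the deposited values lay between 496.09 and 497.45 on all 12 arrays. On stomach KO 1, stomach KO 2 and colon WT 1 it was 496.43, 497.08 and 496.44. Values below 16 made up 13.5% to 16.3% of each array. Whether those 3 arrays were processed differently was not tested. After leaving out 90 controls, 18003 of 22626 probe sets had 1 gene in the platform annotation, 287 several and 4336 none, and symbols were updated by gene identifier for 17977. Each of 11807 genes was represented by its probe set with the highest mean. Values were taken as log2(intensity + 16) and quantile normalized, and genes were kept at or above the 40th percentile (6.53) in at least 2 arrays.

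The model had a mean for each group (limma 3.58.1, R 4.3.3), used an intensity trend and left 6 residual degrees of freedom. Benjamini-Hochberg adjustment ran over all genes tested. The steps were tested on simulated data. The genes and lists were chosen with earlier results of these data known. Named were Spdef, all members, per list of other absorptive genes those called in colon or else the 2 with the largest KO minus WT difference, and the 10 genes most like the members. Same-numbered arrays did not deviate together in every pair of groups. The correlations ran from -0.27 to 0.25, the highest between colon KO and colon HET, so the numbers were not taken to pair the samples. Alternatives were no filter, an offset of 1 or of 64, no quantile normalization, every probe set, each tissue alone, a replicate block and leaving out each array. Figures used Python 3.11.15 and matplotlib 3.10.9.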

Additional observations from a re-analysis of the deposited data

How the results depend on the processing

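Over 19 alternatives (18 between tissues), no called difference of the 10 genes changed sign. With each gene, comparison and alternative counted as a case, a call was lost in 40 cases and gained in 16. With each of the 12 arrays left out in turn, the genes called ranged from 0 to 4 in colon KO minus WT and in HET minus WT, and from 0 to 2 in the colon minus stomach difference of KO minus WT, the highest each time without colon WT 1. They ranged from 6 to 10 in KO colon minus stomach, the lowest without stomach KO 1, from 7 to 10 in HET, the lowest without stomach HET 2, and from 6 to 10 in WT, the lowest without stomach KO 1 or 2, stomach HET 1 or 2, stomach WT 1 or colon HET 1 or 2. The counts in KO minus HET and in stomach stayed at 0 throughout. The Aqp8 call in KO colon minus stomach was lost with an offset of 64 (4.31, adjusted p = 0.0603) and in 8 other alternatives, among them without colon KO 2. In WT colon minus stomach the Car1 call was lost in 9 of 18 and the Lypd8 call in 10 of 18. The replicate block, although the numbers do not pair the samples, gave 0 members called in every comparison of genotypes and a difference of 5.27 for Aqp8 in KO colon minus stomach (adjusted p = 0.157). All genes called in colon KO minus WT numbered 4, and 1 to 977 in the alternatives, the most without colon WT 1. In HET minus WT they numbered 2, and 0 to 1072, and in KO minus HET 2, and 0 to 27. In stomach KO minus WT had 1 (0 to 10), HET minus WT 0 and KO minus HET 1 (0 to 21). Between tissues the counts were 1915 in KO (1054 to 2661), 1859 in HET (946 to 2596) and 2283 in WT (1100 to 3140), and 2 (0 to 396) for the difference between tissues. The cause of these changes was not tested.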
